A study of Rattus norvegicus with 4 samples.

Results

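Caveolin 1 (Cav1) and caveolin 3 (Cav3) were followed in MAT-LyLu and G, a pair of cell lines derived from the Dunning R3327 rat prostate tumour. MAT-LyLu is described by the submitters as highly metastatic and G, the control line, as non-metastatic. No treatment is named. Labelled total RNA of both lines was hybridised to Affymetrix rat oligonucleotide arrays, 2 for MAT-LyLu and 2 for G. The labels call the arrays duplicates and do not say whether they came from separate cultures, so the p-values below reflect array-to-array scatter that may be only technical. Each line is a single established subline, so a difference between the lines is a difference between 1 metastatic and 1 non-metastatic line. The probe sets were selected by gene symbol: all those that the platform annotation assigns to Cav1 or Cav3, which were 4 of 8799 probe sets, 1 for Cav1 and 3 for Cav3. Both genes had been chosen on their signal differences between these same 4 arrays, so those differences are given as a description, without a test.

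Caveolins are small hairpin-shaped membrane proteins that assemble, together with the cytoplasmic cavin proteins and cholesterol, into the coat of caveolae, flask-shaped pits of the plasma membrane. Cav1 is the caveolin of most non-muscle cells and is abundant in endothelium, fibroblasts and adipocytes; Cav3 is the caveolin of skeletal and cardiac muscle fibres, where it sits in the sarcolemma beside the dystrophin complex. In human prostate cancer, caveolin 1 is known as a protein that tumour cells can secrete and that has been followed with disease progression.

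Both genes lie on rat chromosome 4, far apart from each other. The sequences around their annotated starts are shown because the transcripts of Cav1 and Cav3, which differed between the lines in opposite directions, begin there. They come from RefSeq (GRCr8), plus strand, and run from 250 bases before to 50 bases after each start. Capitals mark E-boxes (CANNTG, the element bound by myogenic and other helix-loop-helix factors) and GC boxes (GGGCGG on either strand, the element bound by Sp1-type factors). RefSeq gives Cav1 a pair of starts, with windows at chr4:46606288-46606587 and chr4:46607722-46608021, and Cav3 a single one, with its window at chr4:147137743-147138042.
Cav1, first start: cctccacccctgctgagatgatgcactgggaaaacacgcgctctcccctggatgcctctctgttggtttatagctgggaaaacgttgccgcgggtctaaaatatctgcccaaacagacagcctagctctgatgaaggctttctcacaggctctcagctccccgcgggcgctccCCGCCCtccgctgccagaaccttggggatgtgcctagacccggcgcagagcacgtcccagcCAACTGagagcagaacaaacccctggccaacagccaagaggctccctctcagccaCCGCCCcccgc
Cav1, second start: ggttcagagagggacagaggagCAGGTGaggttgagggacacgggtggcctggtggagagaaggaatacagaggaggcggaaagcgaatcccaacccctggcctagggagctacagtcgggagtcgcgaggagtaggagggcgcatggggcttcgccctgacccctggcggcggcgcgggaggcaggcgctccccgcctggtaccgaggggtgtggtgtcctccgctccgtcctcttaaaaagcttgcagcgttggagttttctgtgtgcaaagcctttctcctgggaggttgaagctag
Cav3: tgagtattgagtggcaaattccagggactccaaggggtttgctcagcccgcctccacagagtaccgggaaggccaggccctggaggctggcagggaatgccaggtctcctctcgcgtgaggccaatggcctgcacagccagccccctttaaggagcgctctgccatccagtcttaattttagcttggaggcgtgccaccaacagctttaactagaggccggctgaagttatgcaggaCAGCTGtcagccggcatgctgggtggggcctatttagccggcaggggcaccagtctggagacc

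Each of the 3 windows held 1 E-box, at position -16 from the start in the first Cav1 window, -228 in the second Cav1 window and -13 in the Cav3 window. At least 1 E-box was present in 72.1% of all 33469 rat start windows of this length. The first Cav1 window held 2 GC boxes, at positions -77 and 40, a number reached or passed by 17.0% of all windows, and the other windows held none. These matches describe the letters of the windows and say nothing about binding in either line, and the arrays do not tell which Cav1 start was used.

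Cav1 was bright in MAT-LyLu and under background in G. Its single probe set, Z46614cds_at, which was designed on a coding sequence, read 27820 and 27695 signal units on the MAT-LyLu arrays, against 899.55 and 888 on the G arrays. The background level, defined per array from control probe sets for bacterial, yeast and mouse transcripts, was 1891 and 2311 on the MAT-LyLu arrays and 1973 and 2143 on the G arrays, so the G signal gives only an upper limit. Set against that limit, Cav1 was at least 13.5-fold higher in MAT-LyLu (27758 ± 88.2 in MAT-LyLu and 894 ± 8.33 in G; SD, n = 2 each). The fitted log2 difference of 4.93 (log2 of signal + 16, MAT-LyLu minus G) has no exact size for the same reason. The arrays within a line differed by 0.006 log2 units in MAT-LyLu and 0.019 in G. With signals raised to the background level of each array, 8 of the 6555 probe sets tested, Cav1 among them, had a log2 difference as high as that of Cav1 (3.74) or higher. Cav1 had been chosen on this contrast, so the small count is a description and not support.

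Cav3 went the other way on each of its 3 probe sets, and these differed from one another in size. The probe set rc_AI104707_at read 6679 and 6628 in MAT-LyLu, against 15888 and 14846 in G, so it was above background on all 4 arrays and 2.31-fold lower in MAT-LyLu (log2 difference -1.20). The probe set rc_AI043968_g_at read 234 and 284 in MAT-LyLu, against 9477 and 7720 in G, and was at least 4.09-fold lower in MAT-LyLu. The probe set rc_AI043968_at, built on the same expressed sequence tag, read 353 and 334 in MAT-LyLu, against 6291 and 5191 in G, and was at least 2.73-fold lower in MAT-LyLu. The last 2 share their source sequence and are not independent readings of the gene. Their fitted log2 differences of -4.97 and -3.99 have no exact size.

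The Cav3 probe sets thus disagreed on whether MAT-LyLu holds any signal above background: rc_AI104707_at placed it above, and both probe sets on the other tag placed it under. The measured 2.31-fold difference on rc_AI104707_at is smaller than the lower bounds of 4.09-fold and 2.73-fold on the others. The G arrays differed by 0.098 to 0.295 log2 units on these probe sets and the MAT-LyLu arrays by 0.011 to 0.264. On both rc_AI043968 probe sets the MAT-LyLu gap lies between signals under background. Cav3 had been chosen on the difference between the lines, so these gaps are a description and not support for it. The probe sequences behind these tags were not used here, so the reason for the disagreement was not tested.

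The arrays of the lines did not overlap on any of the 4 probe sets. This count carries little by itself, because 67.7% of all tested probe sets did not overlap between the lines, 28.6% with MAT-LyLu higher and 39.2% with MAT-LyLu lower, and because the genes had been chosen on this contrast. All 4 probe sets passed the filter on low signals, which used the mean signal over the 4 arrays. Passing it does not place a probe set above background in both lines. Cav1 was under background in G, and rc_AI043968_g_at and rc_AI043968_at were under it in MAT-LyLu.

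**Figure D1:**
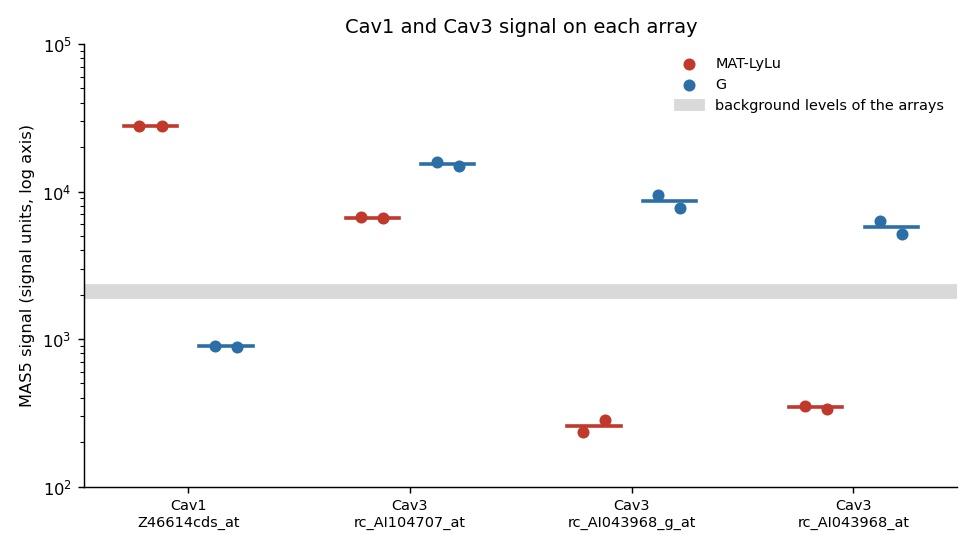
MAS5 signal (log axis) of the Cav1 probe set and the 3 Cav3 probe sets on each array; points are arrays, bars are means of 2 arrays, and the grey band spans the arrays' background levels from 1891 to 2311. Cav1 sits above the band in MAT-LyLu and under it in G, while Cav3 is higher in G on each probe set and stays above the band in MAT-LyLu only on rc_AI104707_at.

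Array quality was alike in both lines. Array medians ran from 2998 to 3015 in MAT-LyLu and from 3049 to 3156 in G, log2 signals of the arrays of a line correlated at r = 0.990 in MAT-LyLu and 0.989 in G across the tested probe sets, and probe sets are not independent replicates. Between the lines r ran from 0.804 to 0.809. A signal above the background level is not proof of a transcript on this scale: of 10 leukocyte markers, 7 lay above it on both arrays of MAT-LyLu and 7 on both arrays of G, with Cd8a, a T cell co-receptor, at 6601 and 7772 in MAT-LyLu and 7097 and 6490 in G. Probes differ in their response, so no gene's level is read against another's. Levels of different probe sets are combined further on in the summed marker signals, where bright probe sets weigh most. They also enter the distance by which genes of like profile are picked.

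Other measured genes of the caveolar coat differed by less than 2-fold. Of 12 such genes, 3 were measured, and 1 rose, 1 fell and 1 did not pass (limma, Benjamini-Hochberg adjusted p under 0.05), where 14.1% of the 3866 named genes tested rose and 19.7% fell. Caveolin 2, which forms hetero-oligomers with caveolin 1, and the cavins Cavin1, Cavin2 and Cavin4 were not analysed here. Cavin3, a coat protein that binds protein kinase C delta, read 28397 and 24615 in MAT-LyLu, against 19439 and 19662 in G, and rose 1.35-fold (log2 difference 0.43, SE 0.11, adjusted p = 0.016). Both of its probe sets rose, but they were read on the same arrays and may share probes. Without MAT-LyLu replicate 0 the rise of Cavin3 did not pass (adjusted p = 0.18).

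Pacsin2, an F-BAR protein that bends the membrane at caveolae, read 5742 and 5093 in MAT-LyLu, against 7801 and 6573 in G, and fell by a log2 difference of -0.40 (SE 0.11, adjusted p = 0.025). Its fall did not pass without G replicate 0 (adjusted p = 0.10) or without MAT-LyLu replicate 1 (0.13). Ehd4, a dynamin-like ATPase of endocytic recycling, read 9625 and 8880 in MAT-LyLu and 8091 and 8008 in G, a log2 difference of 0.20 that missed the threshold (adjusted p = 0.12).

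Proteins reported to bind caveolins or to sit in caveolae changed in both directions. Of 67 listed genes, 48 were measured and 44 tested, of which 5 rose, 7 fell and 32 did not pass. These shares, 11.4% up and 15.9% down, are near those of all named genes, and the median log2 difference of the measured genes was -0.06, against -0.01 over all 4736 named genes. The 5 rises were Map2k1, Itgb1, Plaur, Abcb1b and Prkcd. Plaur, the urokinase receptor, read 11319 and 10883 in MAT-LyLu, against 6199 and 6306 in G (log2 difference 0.83, SE 0.08, adjusted p = 1.4e-04). Abcb1b, a P-glycoprotein drug exporter, read 4343 and 4206 in MAT-LyLu, against 2573 and 2408 in G (log2 difference 0.78, adjusted p = 2.3e-04), though Abcb1a and Abcb1b are close paralogs. Itgb1, the integrin beta 1 chain, read 34610 and 34418 in MAT-LyLu, against 20730 and 17689 in G.

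Among the 7 falls, the focal adhesion kinase gene Ptk2 was the one of 2-fold or more. Ptk2 read 3170 and 2771 in MAT-LyLu, against 6215 and 5881 in G, 2.04-fold lower (log2 difference -1.02, SE 0.10, adjusted p = 1.0e-04). Pla2g4a, the cytosolic phospholipase A2 that releases arachidonic acid, read 2489 and 2525 in MAT-LyLu, against 5120 and 4464 in G (log2 difference -0.93, adjusted p = 1.6e-04). Pdgfra, a platelet-derived growth factor receptor, was under background on both MAT-LyLu arrays and only just above it in G. It was at least 1.14-fold lower in MAT-LyLu (adjusted p = 4.1e-04), and 1 of its 4 probe sets fell. With signals raised to background Pdgfra did not pass (adjusted p = 0.42). The other falls were Map2k2, Pdgfrb, Itpr1 and Adcy6.

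The MAP kinase kinase genes that act downstream of Ras were on opposite sides. Map2k1 read 18502 and 13854 in MAT-LyLu, against 9426 and 8188 in G, and 2 of its 3 probe sets rose. Map2k2 read 12685 and 10987 in MAT-LyLu, against 21772 and 19667 in G, and all 3 of its probe sets fell. The raft scaffold genes Flot1 and Flot2, the kinases Src, Fyn and Lyn, and the nitric oxide synthase genes Nos1, Nos2 and Nos3 did not pass on their brightest probe sets, although 1 of the 6 probe sets of Nos3 rose. Apart from Plaur, Abcb1b, Ptk2, Pla2g4a and Pdgfra, the caveolin partners were named here after their values were seen.

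Genes of clathrin endocytosis, the other main endocytic route, were called in both directions. Of 28 genes, 22 were measured and 21 tested, of which 3 rose, 5 fell and 13 did not pass, with a median log2 difference of -0.09. These are 14.3% up and 23.8% down, near the 14.1% and 19.7% of all named genes. Dnm1, the neuronal dynamin that cuts coated vesicles free, read 3363 and 3659 in MAT-LyLu, against 6761 and 6182 in G (log2 difference -0.88, SE 0.09, adjusted p = 1.8e-04). Synj1, the phosphatase that helps to uncoat vesicles, read 4212 and 4199 in MAT-LyLu, against 6400 and 6784 in G (adjusted p = 5.2e-04), and the clathrin light chain gene Cltb was 1.45-fold lower (adjusted p = 0.0038). Dab2, a cargo adaptor, read 20210 and 16947 in MAT-LyLu, against 11518 and 9932 in G (log2 difference 0.79, adjusted p = 0.0016), and the uncoating kinase gene Gak was 1.52-fold higher (adjusted p = 0.0040). None of these 21 genes changed by 2-fold or more. With quantile normalization 5 rose and 3 fell, with cyclic loess 4 rose and 4 fell, and with median scaling 3 rose and 4 fell. The balance of rises and falls thus varied with the scaling. The number of falls also varied when 1 array was left out.

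Of 19 genes that deliver, store or export cholesterol, the lipid that caveolae need, 9 were measured and 7 tested, of which 1 rose (14.3%), 2 fell (28.6%) and 4 did not pass, where 14.1% of all named genes rose and 19.7% fell. Soat1, which esterifies cholesterol for storage, read 5791 and 6467 in MAT-LyLu, against 3046 and 3049 in G, 2.01-fold higher (log2 difference 1.00, SE 0.09, adjusted p = 7.5e-05). Apoe, the apolipoprotein that carries cholesterol out of cells, read 17196 and 18013 in MAT-LyLu, against 39494 and 50701 in G, 2.54-fold lower (adjusted p = 1.6e-04), and both of its probe sets fell. Lipa, the lysosomal lipase that frees cholesterol from lipoproteins, was 1.53-fold lower (adjusted p = 5.9e-04). The median log2 difference of the 9 genes was -0.19.

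Among transcription factors reported to act on the CAV1 promoter in human or mouse cells, Srebf1 was lower in MAT-LyLu. Of 13 such genes, 8 were measured and tested, and 1 rose, 1 fell and 6 did not pass. The shares, 12.5% up and 12.5% down, are at or under the 14.1% and 19.7% of all named genes. Without G replicate 0, or without MAT-LyLu replicate 1, 2 rose. Srebf1, the sterol-responsive factor SREBP-1, which is reported to repress CAV1 in human fibroblasts, read 7143 and 7581 in MAT-LyLu, against 24513 and 22008 in G, 3.16-fold lower (log2 difference -1.66, SE 0.10, adjusted p = 7.2e-06). Pparg, a nuclear receptor of adipocyte differentiation whose ligands are reported to raise CAV1 in human tumour cells, read 2992 and 2371 in MAT-LyLu, against 793 and 576 in G, where it was under background, so it was at least 1.30-fold higher (adjusted p = 7.8e-05). With signals raised to background Pparg did not pass (adjusted p = 0.063). The brightest probe sets of Sp1, Foxo1, Klf4, Myc, Ahr and Hif1a did not pass, with log2 differences from -0.18 to 0.30. Myc had 2 probe sets, of which the dimmer rose. How far any of these factors bears on Cav1 was not tested.

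**Figure D2:**
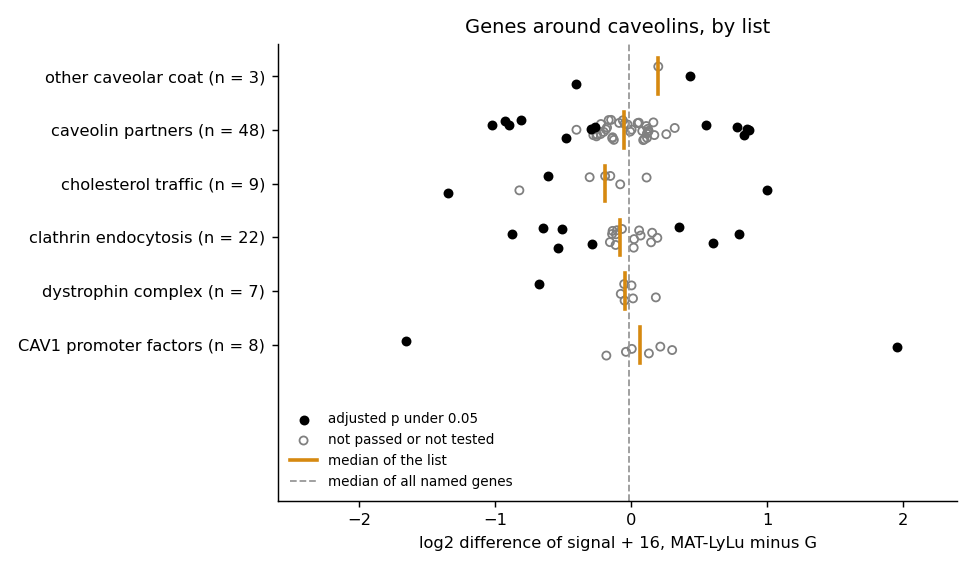
Log2 difference of signal + 16 (MAT-LyLu minus G) of every measured gene in 6 lists around caveolins, each dot 1 gene by its brightest probe set; filled dots passed limma at an adjusted p under 0.05, orange bars are list medians and the dashed line is the median of all named genes, -0.01. The list medians run from -0.19 for cholesterol traffic to 0.20 for the other coat genes; the dot of Pparg, at the far right of the promoter factors, has no exact size because its G signals are under background.

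Cav3 was next set beside the genes it accompanies in muscle. Of 17 genes of the dystrophin complex and its sarcolemma partners, 7 were measured and 5 tested, of which none rose, 1 fell and 4 did not pass in limma; none of these 5 had a higher signal in MAT-LyLu at an unadjusted p under 0.05. That is 1 fall in 5, where 19.7% of all named genes fell and 14.1% rose. The gene that fell was Pfkm, the muscle phosphofructokinase, which binds caveolin 3 in muscle, at 5054 and 5070 in MAT-LyLu, against 8463 and 7793 in G (log2 difference -0.68, SE 0.08, adjusted p = 5.0e-04). Dmd, the dystrophin gene, was under background on all 4 arrays, at 1356 and 1607 in MAT-LyLu and 1527 and 1423 in G. Its homolog Utrn, or utrophin, read 6557 and 6906 in MAT-LyLu and 5636 and 6249 in G and did not pass (adjusted p = 0.17). Nos1, the nitric oxide synthase of the sarcolemma, did not pass (log2 difference -0.05).

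Few striated muscle markers passed the test. Of 40 markers, 34 were measured and 27 tested, of which 1 rose, 1 fell and 25 did not pass, with a median log2 difference of -0.06. That is 3.7% in each direction, against 14.1% up and 19.7% down among all named genes, and at an unadjusted p under 0.05 there were 1 higher and 4 lower in MAT-LyLu. Their summed signal was 120172 and 123111 in MAT-LyLu and 131882 and 136468 in G, and 20 of the 34 lay above background on both arrays of MAT-LyLu and 21 on both arrays of G. The one that fell was Pvalb, or parvalbumin, a calcium buffer of fast muscle fibres and of some neurons, at 2124 and 1904 in MAT-LyLu, against 7917 and 7496 in G, 3.83-fold lower (log2 difference -1.93, SE 0.09, adjusted p = 2.0e-06). The signal of Pvalb on MAT-LyLu replicate 1 was under that array's background level of 2311. With signals raised to background its log2 difference was -1.79. The one that rose, Myh4, was under background on all 4 arrays. Acta1, the skeletal actin gene, and the myogenic regulator Myod1 were under background on all 4 arrays, Acta1 at 892 and 987 in MAT-LyLu and 904 and 1044 in G. The muscle creatine kinase gene Ckm, at 6175 and 6659 in MAT-LyLu and 7310 and 8323 in G, did not pass.

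**Figure D3:**
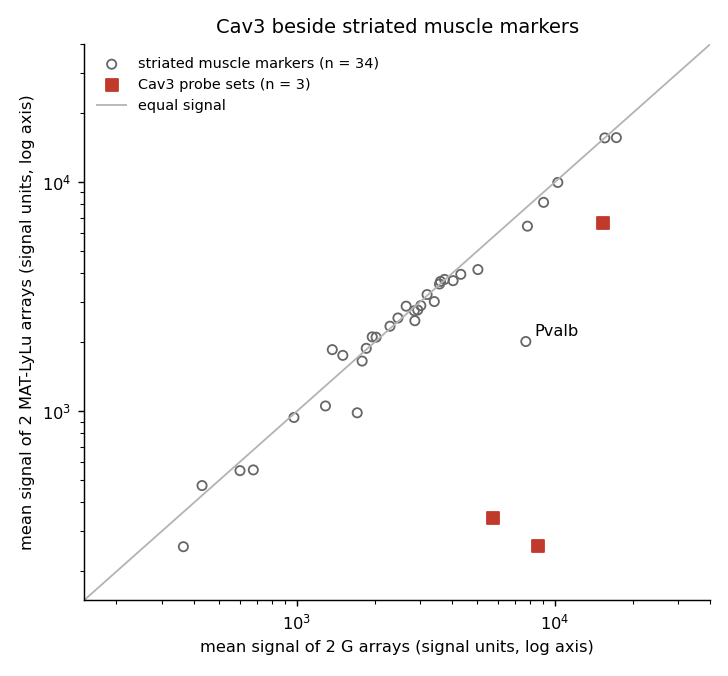
Mean signal in MAT-LyLu (vertical) against mean signal in G (horizontal), both on log axes and over 2 arrays, for 34 striated muscle markers by their brightest probe set and for the 3 Cav3 probe sets; the line marks equal signal. Most markers lie along the line, and the Cav3 probe sets, Pvalb and, through 1 G array, Actc1 lie under it. Of the 34 markers, 10 were under background on all arrays, so their places carry little. The points of rc_AI043968_g_at and rc_AI043968_at have no exact place because their MAT-LyLu signals are under background.

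Markers of other caveola-rich cell types were read in the same way. Of 14 endothelial markers, 9 were measured and 7 tested, of which none rose and none fell in limma, and none had an unadjusted p under 0.05. Their summed signal was 28314 and 30049 in MAT-LyLu and 29522 and 27035 in G, with Vwf and Pecam1, which define the cell type, among those that did not pass and Pecam1 under background on all 4 arrays. Of 10 smooth muscle markers, 7 were measured and 6 tested: 1 rose (16.7%) and 2 fell (33.3%), against 14.1% and 19.7% of all named genes. The falls were Myl9 (3.45-fold) and Tagln (1.78-fold), both regulators of actomyosin. The rise was Cald1, the actin-binding caldesmon, at 2880 and 2845 in MAT-LyLu, against 1645 and 1505 in G, under background in G and at least 1.39-fold higher in MAT-LyLu (adjusted p = 2.1e-04). Their summed signal was 41475 and 43714 in MAT-LyLu and 58797 and 60396 in G.

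Of 14 adipocyte markers, 12 were measured and 10 tested, and 2 rose, 3 fell and 5 did not pass, where 14.1% of all named genes rose and 19.7% fell. The rises were Fabp4 and Pparg and the falls Cfd, Slc2a4 and Dgat1. The summed signal was 87836 and 86795 in MAT-LyLu and 59452 and 57382 in G, and Fabp4 by itself read 30368 and 29233 in MAT-LyLu, against 925 and 832 in G. The lipid droplet coat gene Plin1 and the lipoprotein lipase gene Lpl, both defining markers, were under background on all 4 arrays. Of 15 epithelial markers, 11 were measured and 9 tested, of which 3 rose (33.3%), 1 fell (11.1%) and 5 did not pass. The rises were Krt8, a keratin of simple epithelia, the protease inhibitor gene Spint2 (4.25-fold) and Tjp1 of tight junctions (1.42-fold), and the fall was Jup, or plakoglobin (1.20-fold lower, adjusted p = 0.042). Krt8 read 41435 and 41521 in MAT-LyLu, against 1978 and 1691 in G. The keratin genes Krt18, Krt19 and Krt5 did not pass (log2 differences 0.007, 0.231 and 0.004). Krt18 was under background on both MAT-LyLu arrays. Krt19 and Krt14 were under it on all 4 arrays, and Krt14 was not tested. The summed signal of the 11 was 89128 and 88564 in MAT-LyLu and 36412 and 33625 in G, while their median log2 difference was 0.007. Epcam, a defining marker, was under background on all 4 arrays. The part of any other cell type in the caveolin signals was not tested, and in RNA of whole cultures a change in the share of cells and a change per cell cannot be told apart.

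The genes most alike to Cav1 over the 4 arrays were Fabp4, Penk, Ccnd1, Hprt1, Ptprq and Fosl1. They had the smallest Euclidean distance to the Cav1 probe set on the log2 scale among the brightest probe sets of all named genes, from 0.179 for Fabp4 to 1.25 for Fosl1. Fabp4 is a fatty acid carrier and Penk the enkephalin precursor. Ccnd1, or cyclin D1, read 24050 and 27732 in MAT-LyLu, against 1647 and 1442 in G. Hprt1, of purine salvage, Ptprq, a receptor-type phosphatase, and Fosl1, an AP-1 subunit, completed the set. Cav1 and each of the 6 were under background on both G arrays, so the distances and the order of the 6 carry no exact meaning on the G side. Likeness here rests on 2 lines and 4 arrays, and the choice of Cav1 on its difference fixes much of it.

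For Cav3 the brightest of its probe sets, rc_AI104707_at, was taken, and the others, which were under background in MAT-LyLu, were not. The 6 nearest genes were Azin1, an antizyme inhibitor of polyamine control, Eci1, an isomerase of fatty acid oxidation, Akr7a2, an aldehyde reductase, Cd47, a surface ligand of phagocyte receptors, H2ax, a histone variant, and Mcrs1, with distances from 0.160 to 0.288. Azin1 read 6327 and 6206 in MAT-LyLu, against 15145 and 14091 in G. These distances, too, set levels of different probe sets side by side and serve only to pick the genes. The choice of Cav3 on its difference fixes much of this likeness as well.

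**Figure D4:**
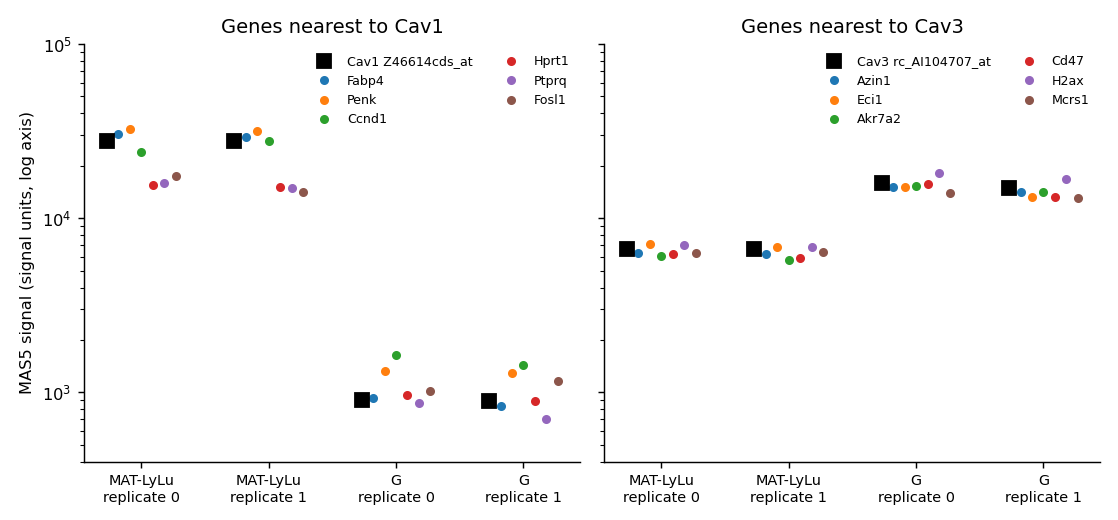
MAS5 signal (log axis) on each of the 4 arrays for Cav1 and its 6 nearest genes (left) and for Cav3 rc_AI104707_at and its 6 nearest genes (right); squares are the caveolins and dots the other genes. Cav1 and its nearest genes lie between 14050 and 32531 in MAT-LyLu and between 706 and 1647 in G, and Cav3 and its nearest genes between 5789 and 7067 in MAT-LyLu and between 13052 and 18182 in G.

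The neighbours of the caveolin genes on chromosome 4 were read last, taking the 5 protein-coding genes on each side in RefSeq (GRCr8), a rule set after the caveolin values had been seen. Beside Cav1, 4 of 10 neighbours were measured. Met, the hepatocyte growth factor receptor and the next gene after Cav1, read 3707 and 4220 in MAT-LyLu, against 2734 and 2704 in G (log2 difference 0.54, SE 0.09, adjusted p = 0.0028). Capza2, an actin-capping subunit and the gene after Met, read 8197 and 7883 in MAT-LyLu, against 5900 and 5077 in G (log2 difference 0.55, SE 0.10, adjusted p = 0.0032). On the other side, Mdfic read 3167 and 2677 in MAT-LyLu, against 2303 and 1913 in G (log2 difference 0.47, adjusted p = 0.021), and Tfec did not pass (log2 difference -0.04). Met, Capza2 and Mdfic each differed by under 1.5-fold. These are 3 of the 4 measured neighbours, where 14.1% of all named genes rose, and the neighbours were looked at with the Cav1 values known.

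Beside Cav3, 3 of 10 neighbours were measured and none passed: Oxtr, the oxytocin receptor gene and the next gene after Cav3, read 2015 and 2144 in MAT-LyLu and 1846 and 2023 in G (log2 difference 0.10, adjusted p = 0.45), and Rad18, a ubiquitin ligase of DNA repair, read 6424 and 6335 in MAT-LyLu and 7246 and 6256 in G (log2 difference -0.08, adjusted p = 0.58). Grm7 was under background on all 4 arrays and was not tested. No copy number was measured here.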

How the data were processed

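Expression was measured on 4 arrays, 2 of MAT-LyLu and 2 of G, grouped by the sample titles. The authors deposited probe set signal intensity values on a linear scale, computed with MAS5 per the submitters' processing notes, with its version, scaling target and any genome build not given in the sources used here. Trimmed means (2% off each tail) differed by 7.83% between arrays, under the 10% limit for further scaling, so signals were used as deposited.

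Symbols came from the platform annotation, updated through the RefSeq GRCr8 gene table: 7018 probe sets had 1 symbol (6994 matched), 308 several and 1473 none; only the first were named. Each array's background was set at the 95th percentile over 23 non-rat control probe sets. Where both arrays of a line lay under it, the fold is a bound, computed with those values raised to background. Folds come from mean log2 signals, and log2 differences use a pseudocount of 16.

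The fit left out 59 array controls and the dimmest 25% of other probe sets by mean signal, keeping 6555. They were fitted with limma 3.58.1 in R 4.3.3 (lmFit, eBayes with intensity trend), 2-sided, Benjamini-Hochberg adjusted over all 6555 at 0.05; the fit was tested on simulated data. The brightest probe set stood for a gene. The caveolins and the gene lists were chosen with earlier results of these data known. Named from each list were all measured coat genes or the up to 5 smallest p past the threshold, with exceptions marked, as well as the 6 nearest genes by distance. Tag suffixes _s, _g, _i and _r mark probe sets that may share probes or related transcripts. Alternatives were pseudocounts of 1 and 64, other scalings, a floor at background, other filters, no trend, the replicate block, gene means and each array left out. The number of arrays limits the precision.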

Additional observations from a re-analysis of the deposited data

How the results depend on the processing

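Cav1 and Cav3 kept their direction in each alternative run. Both had been chosen on this contrast, and their arrays did not overlap between the lines. Leaving out 1 array or changing the pseudocount thus could not have reversed the direction. For Cav1 the log2 difference of 4.93 was 4.96 with a pseudocount of 1, 4.86 with 64, 4.99 with quantile normalization, 4.98 with median scaling, 4.97 with cyclic loess and 3.74 with a floor at background; leaving out 1 array in turn gave 4.92 to 4.94. For Cav3, rc_AI104707_at (-1.20) gave -1.12 with quantile normalization and -1.15 with cyclic loess, and rc_AI043968_g_at (-4.97) and rc_AI043968_at (-3.99) gave -4.74 and -3.83 with a pseudocount of 64 and -2.02 and -1.44 with a floor at background.

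MAT-LyLu was higher on 908 and lower on 1330 of all tested probe sets. With quantile normalization these counts were 1136 and 1180, and with median scaling 1081 and 1193. They were 1065 and 1233 with cyclic loess and 847 and 1199 with a floor at background. Falls outnumbered rises in each of these runs, also with any 1 array left out, and the size of the excess depended on scaling. Quantile normalization gave 9 rises of caveolin partners (5 as reported), 5 rises and 3 falls of clathrin genes (3 and 5) and 3 rises of promoter factors (1). Rises of promoter factors numbered 3 with median scaling, 2 with cyclic loess, 2 with the replicate block, 2 with the mean of all probe sets and 0 with the lower 50% left out, where Pparg was not tested. With no filter 4 cholesterol genes fell (2 as reported). Leaving out 1 array in turn gave 0 to 1 rises and 0 to 1 falls of coat genes, 3 to 4 falls of clathrin genes and 1 to 2 rises of promoter factors. Deviations of same-numbered arrays correlated at r = 0.155, the labels do not say what a number marks, and with the replicate block 967 probe sets rose and 1421 fell. Cavin3, Pacsin2, Pdgfra and Pparg lost their calls as given above. Signals under background limit the size of the Cav1 and rc_AI043968 differences.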
